A study of Mus musculus with 48 samples.

Results

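The comparison covers the step from 198 to 313 mg/kg-d of dichloroacetic acid (DCA) in frozen (FROZ) mouse liver. It takes in 12 of the 48 TempO-Seq libraries of the series, chosen by the dose and preservation labels alone: 6 FROZ libraries at 198 mg/kg-d (animals 49 to 54) and 6 at 313 mg/kg-d (animals 73 to 78). The tissue was archival, and every library of the 12 came from a different male B6C3F1 mouse, the F1 hybrid of C57BL/6 and C3H, aged 4 weeks. The mice of both groups drank water with DCA for 6 days, at 1.0 g/L for 198 mg/kg-d and at 2.0 g/L for 313 mg/kg-d. Other mice of the series drank plain water or 3.5 g/L (427 mg/kg-d), and each animal also gave a formalin-fixed paraffin-embedded (FFPE) library. Both groups therefore received DCA, and neither is an untreated control. The tissue was a mixture of liver lobes, so a value is an average over every cell type in the piece, and fewer cells of a type cannot be told apart from less RNA per cell.

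TempO-Seq counts ligated pairs of short detector oligos that hybridise to a chosen target in each transcript. The deposited FROZ table holds log2(CPM + 1), where CPM is a gene's reads scaled to a common library total, for 11275 genes. Steps between the lowest values returned 6690000 to 9410000 reads per library in the 12 FROZ libraries of the step, so that 1 read was worth 0.106 to 0.15 CPM and 3 reads gave 0.399 to 0.535 on the log2 scale. Mean depth was 7820000 reads at 198 mg/kg-d and 7760000 reads at 313 mg/kg-d (exact permutation test, two-sided, p = 0.911). The genes at 0 numbered 28 to 54 in each of these 12 libraries, and the group means of 40.67 and 38.5 differed by less than the spread (exact permutation test, two-sided, p = 0.684). The 10 hepatocyte markers were all listed and summed to 55460 to 67740 CPM at 198 mg/kg-d and 44070 to 57310 CPM at 313 mg/kg-d, with 1 of the 10 lower at 313 mg/kg-d by FDR. No hepatocyte marker was at 0 in the 12 libraries.

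Dichloroacetic acid is a small chlorinated acid formed when water is disinfected with chlorine, and as a drug it inhibits the kinases that switch off pyruvate dehydrogenase. Peroxisome proliferator-activated receptor alpha (PPARα) is a nuclear receptor of hepatocytes that binds DNA with retinoid X receptor and drives genes of fatty acid breakdown when lipids or certain chemicals bind it. In rodent liver those genes act in sequence: Cyp4a enzymes oxidise the far end of a fatty acid, peroxisomes shorten very long chains, mitochondria take over the shorter ones, and acyl-CoA thioesterases release free fatty acids on the way.

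Levels below are log2(CPM + 1) and differences are log2 fold changes ± SE of 313 against 198 mg/kg-d on that scale, which understates the change of genes near 0. The limma test used all 24 FROZ libraries and adjusted p over all genes of the table by Benjamini-Hochberg (FDR). A gene is said to have risen or fallen where FDR was under 0.05, and to be a differentially expressed gene (DEG) where the fold change was above 2 as well. Of the 11275 genes, 115 were DEGs with higher levels at 313 mg/kg-d (1.02%) and 39 were DEGs with lower levels (0.346%). By FDR alone, 908 rose (8.05%) and 411 fell (3.65%). At an unadjusted p under 0.05 by limma, 2959 of the 11275 genes differed in either direction. Counts of list members at either threshold are to be read against these shares. Over the whole table the median log2 fold change was 0.04. In 513 genes (4.55%) the 6 mice at 313 mg/kg-d lay wholly outside the range of the 6 at 198 mg/kg-d, and 107 of the 154 DEGs were among them, 80 with higher and 27 with lower levels. A change of over 4 times was reached by 25 DEGs.

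Some libraries at 313 mg/kg-d stood apart from the rest in a way the dose groups do not share. The libraries of animals 73, 74 and 75, together with that of animal 6 from the plain water group, lay outside the range of the other 20 FROZ libraries in 17 of the 11275 genes. Of the 16 with a position, 11 were on chromosome 17, which holds 4.92% of the placed genes of the table. They spanned chr17:24215054-43612202 (GRCm38). The 4 libraries were picked after the values were seen, for standing apart on chromosome 17. The share of that chromosome among the 17 genes is therefore a description and no test. Ccnf, which encodes cyclin F, measured 1.78 to 2.37 in those 4 libraries and 4.21 to 5.56 in the other 20. H2-Ab1, a class II histocompatibility chain, measured 0.79 to 1.63 against 2.24 to 4.14. The class I gene H2-D1 went the other way, at 5.22 to 5.58 against 3.55 to 4.68. Ccnf, H2-Ab1 and Tedc2, a gene of the tubulin delta and epsilon complex, were 3 of the 39 DEGs with lower levels, and none of these calls held without animals 73, 74 and 75. The call of Ccnf was also lost without any single one of the 3, and that of H2-Ab1 without animal 53, 73 or 74. With those 3 animals left out, an alternative chosen after the values were seen, 73 DEGs were called, 63 higher and 10 lower, of which 67 were among the 154. Adgrf1, Eci1, Decr2, Ppard and Cyp4f14, described below, also lie within that span of chromosome 17, without being among the 17 genes. Adgrf1 and Decr2 were not DEGs without animals 73, 74 and 75, while Eci1 and Ppard still were. What sets these libraries apart was not tested, nor was its part in the values of genes within the span.

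**Figure D1:**
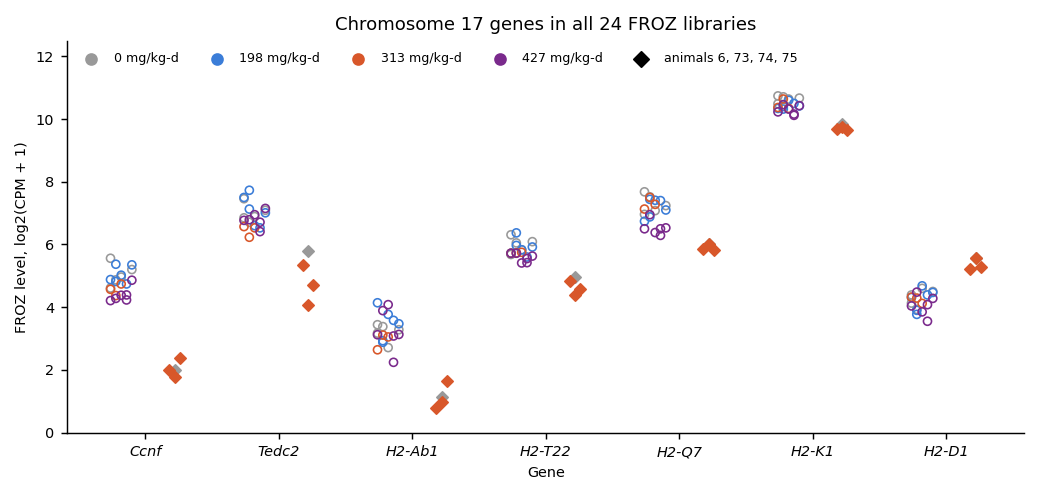
Levels of 7 chromosome 17 genes, log2(CPM + 1), in all 24 FROZ libraries, with dose by colour and diamonds for animals 6, 73, 74 and 75. The diamonds of Ccnf sit at 1.78 to 2.37 and all other points at 4.21 or above, and for H2-D1 the diamonds are the highest points.

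The omega-oxidation genes held the largest increases of the step. All 10 members of the list were in the table: 5 were DEGs with higher levels, 6 rose and 1 fell by FDR, and the median log2 fold change was 0.80 against 0.04 for all genes. Cyp4a14, a fatty acid hydroxylase, measured 0.47, 0.96, 1.91, 1.91, 1.28 and 2.60 in animals 49 to 54. In animals 73 to 78 it measured 9.51, 9.36, 9.22, 8.68, 8.44 and 6.95. Every mouse at 313 mg/kg-d was far above every mouse at 198 mg/kg-d, and several of the latter were within reach of the level that 3 reads give. The log2 fold change was 7.18 ± 0.35 (FDR = 6.46e-14), a 145-fold difference on the offset scale. Its neighbour Cyp4a10 ranged from 3.54 through a median of 5.07 to 5.93 at 198 mg/kg-d and from 9.41 through 10.84 to 11.58 at 313 mg/kg-d. The gap between the groups was 5.79 ± 0.41 (FDR = 4.63e-10).

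Among the other omega-oxidation members, Cyp4a31 went from 0.76 to 1.91 (median 1.10) at 198 mg/kg-d to between 3.37 and 6.14 (median 4.48), a difference of 3.56 ± 0.36 (FDR = 3.57e-07). Aldh3a2, the fatty aldehyde dehydrogenase that completes the conversion to an acid, lay at 5.21 to 5.78 (median 5.64) and then at 6.43 to 8.93 (median 8.19), a difference of 2.42 ± 0.31 (FDR = 5.64e-06). Neither gene's groups overlapped. Cyp4a32 rose by 1.07 ± 0.23 (FDR = 0.00311), with groups that touched at 4.84 to 6.47 against 4.08 to 4.91, and was no longer a DEG without animal 73 (0.87), without animal 74 (0.94), or without animals 73, 74 and 75 together (0.54, FDR = 0.200). Cyp4f14, from the Cyp4f branch of the family, fell by 0.57 on the log2 scale (FDR = 0.0115). The Cyp4a genes lie side by side on chromosome 4 and resemble one another: 29.8% of the 50-base windows of Cyp4a10, 20.6% of Cyp4a31 and 43.8% of Cyp4a32 transcripts also occur in another gene, against 0.235% of Cyp4a14, so a share of the reads of the first 3 may belong to a neighbour.

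Acyl-CoA thioesterases, which split acyl-CoA into free fatty acid and coenzyme A, followed in size. Of the 13 on the list, 8 were in the table, 3 were DEGs with higher levels, 4 rose and none fell by FDR (limma; at an unadjusted p under 0.05 7 were higher and 0 lower), and the median was 0.64. The cytosolic enzyme Acot1 measured 3.84, 3.71, 3.93, 4.34, 4.32 and 4.19 in animals 49 to 54 and 8.73, 8.04, 8.47, 7.34, 7.36 and 5.04 in animals 73 to 78. The groups did not overlap, the spread was wider at 313 mg/kg-d, and the difference was 3.44 ± 0.38 (FDR = 9.94e-07). The mitochondrial enzyme Acot2 ranged from 0.44 to 1.22 (median 0.81) and from 1.85 to 5.45 (median 4.50), a difference of 3.37 ± 0.40 (FDR = 2.92e-06). For the peroxisomal enzyme Acot3 the ranges were 0.44 to 1.91 (median 1.07) and 3.22 to 7.23 (median 5.33), a difference of 4.26 ± 0.45 (FDR = 5.45e-07). The Acot genes stand next to each other on chromosome 12 and share 19.1% (Acot3) to 27.7% (Acot2) of their 50-base windows with relatives. Without animals 73, 74 and 75 the 3 genes were still called, at 2.53, 2.26 and 3.06.

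**Figure D2:**
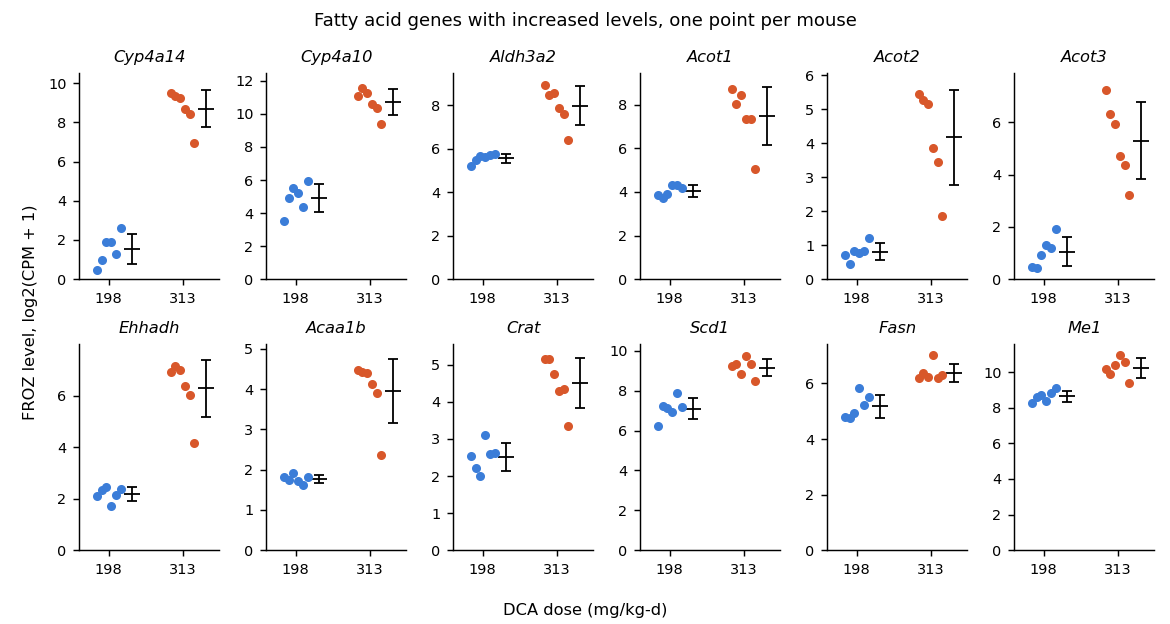
Levels, log2(CPM + 1), of 12 fatty acid genes in the 6 mice at 198 and the 6 at 313 mg/kg-d (left to right by animal number), with the mean and SD of 6 as a dash and bar. In all 12 panels every point at 313 mg/kg-d lies above every point at 198 mg/kg-d, from Cyp4a14 (0.47 to 2.60 against 6.95 to 9.51) to Fasn (4.76 to 5.82 against 6.18 to 7.01).

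Peroxisomal beta-oxidation was the list with the most DEGs. In the table were 17 of its 18 members, of which 10 were DEGs with higher levels, 12 rose and none fell by FDR (limma; at an unadjusted p under 0.05 14 were higher and 1 lower), with a median of 1.13. Ehhadh, the bifunctional enzyme of the middle reactions, measured 2.11, 2.35, 2.45, 1.73, 2.13 and 2.38 in animals 49 to 54. In animals 73 to 78 it measured 6.93, 7.15, 7.00, 6.38, 6.03 and 4.15. Animal 78 was the lowest of its group and still above the whole 198 mg/kg-d group, and the difference was 4.08 ± 0.31 (FDR = 1.76e-09). The 3-ketoacyl-CoA thiolases, which release acetyl-CoA, differed by 2.18 ± 0.26 in Acaa1b (FDR = 2.60e-06) and by 1.91 ± 0.23 in Acaa1a (FDR = 2.92e-06). Acaa1b shares 30.5% of its windows with other genes, mainly Acaa1a.

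Crat, which moves short acyl groups onto carnitine for export, differed by 1.99 ± 0.24 (FDR = 3.29e-06). Eci2 and Ech1, isomerases for unsaturated chains, differed by 1.43 ± 0.16 (FDR = 9.94e-07) and 1.13 ± 0.15 (FDR = 1.62e-05). The reductase Decr2, the membrane transporter Abcd3 and Pex11a, which takes part in peroxisome division, differed by 1.06 ± 0.14, 1.26 ± 0.23 and 1.26 ± 0.24. Hsd17b4, the second bifunctional enzyme, rose by 0.71 ± 0.12 (FDR = 0.000355) and did not reach a fold of 2. Without animals 73, 74 and 75, 6 members of the list were DEGs, and among those that were not were Abcd3 (0.84, FDR = 0.0805), Pex11a (0.73, FDR = 0.127) and Decr2 (0.97, FDR = 0.00210).

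Mitochondrial beta-oxidation genes rose by smaller amounts. Of 15 listed members, 12 rose and none fell by FDR (limma; at an unadjusted p under 0.05 14 were higher and 0 lower), 2 were DEGs, and the median was 0.66. Eci1, the mitochondrial isomerase, ranged from 7.05 to 7.53 (median 7.44) and from 7.98 to 9.11 (median 8.79), a difference of 1.32 ± 0.15 (FDR = 1.40e-06). Acadm, the medium-chain acyl-CoA dehydrogenase, differed by 1.03 ± 0.13 (FDR = 4.13e-06), and fell just short of a fold of 2 when any of animals 49, 50, 73, 74 or 75 was left out (0.95 to 0.99), and was 0.75 without animals 73, 74 and 75 together. Hadha, the alpha chain of the trifunctional protein, rose by 0.66 ± 0.10 (FDR = 6.07e-05). Cpt1a, the carnitine transferase that admits long chains to mitochondria, measured 1.40 to 2.08 and 0.63 to 2.07, a difference of -0.04 ± 0.22 (FDR = 0.930). These levels were low, and the 0.63 of animal 76 was close to the 0.499 that 3 reads give in that library. Of the 4 ketone body genes, 3 rose, none was a DEG, and the median was 0.63.

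None of the receptors was called higher. Ppara, which encodes PPARα, ranged from 7.95 to 8.65 (median 8.50) at 198 mg/kg-d and from 8.24 to 8.72 (median 8.30) at 313 mg/kg-d, a difference of 0.02 ± 0.14 (FDR = 0.956). For Rxra, the partner receptor, the difference was -0.12 ± 0.09 (FDR = 0.433). Ppard, the delta relative, fell by 1.26 on the log2 scale (SE 0.21, FDR = 0.000231), with 5.12 to 5.92 at 198 mg/kg-d and 3.74 to 4.41 at 313 mg/kg-d. These 3 receptors were named after their values were seen.

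Other genes known as PPARα targets split by size. Of 13 listed members, 4 were DEGs with higher levels, 7 rose, none fell by FDR (limma; at an unadjusted p under 0.05 11 were higher and 0 lower), and the median was 0.87. Cd36, a fatty acid transporter of the cell surface, measured 3.34, 3.29, 3.65, 4.29, 3.87 and 3.55 in animals 49 to 54 and 6.08, 5.59, 5.89, 4.99, 4.37 and 3.77 in animals 73 to 78. Animal 78 lay inside the range of the lower dose, and the difference was 1.45 ± 0.30 (FDR = 0.00189). Plin2, the main coat protein of hepatocyte lipid droplets, ranged from 9.56 to 10.04 (median 9.86) and from 10.21 to 11.59 (median 11.28), a difference of 1.23 ± 0.18 (FDR = 4.20e-05). The monoglyceride lipase Mgll differed by 1.15 ± 0.15 (FDR = 1.47e-05). Fabp1, the cytosolic fatty acid carrier, rose by 0.74 ± 0.16 (FDR = 0.00288). None of the 4 was a DEG without animals 73, 74 and 75, where the differences were 0.71 in Cd36, 0.73 in Plin2, 0.87 in Mgll and 0.51 in Pdk4.

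The promoters of the increased genes were read for the textbook element of PPARα with its partner, a direct repeat AGGTCANAGGTCA, on both strands and with up to 2 mismatches. Windows ran from 250 bases before to 50 bases after each start in RefSeq (GRCm38.p6), and 102 of the 134 genes whose values were tabulated individually had a window. Of the 110 windows of increased DEGs, 4 held a match (3.64%), against 3.07% of the 11492 windows of genes in the FROZ table and 3.86% of all 32851 windows. Among the fatty acid oxidation DEGs, 2 of 22 windows did (Cd36 and Plin2). A match is a description of the letters and not a bound site, and elements farther from the start were not read. The 250 bases before the start of Cd36 and Plin2 are shown because they are the DEGs of these lists with a match. The matched 13 bases are in capitals. Cd36 is from chr5:17835897-17836146 (minus strand) and Plin2 from chr4:86670060-86670309 (minus strand).
Cd36: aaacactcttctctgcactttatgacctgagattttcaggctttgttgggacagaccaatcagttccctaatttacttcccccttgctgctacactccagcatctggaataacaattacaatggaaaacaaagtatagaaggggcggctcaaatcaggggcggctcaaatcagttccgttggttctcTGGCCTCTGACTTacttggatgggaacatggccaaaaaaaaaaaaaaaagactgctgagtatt
Plin2: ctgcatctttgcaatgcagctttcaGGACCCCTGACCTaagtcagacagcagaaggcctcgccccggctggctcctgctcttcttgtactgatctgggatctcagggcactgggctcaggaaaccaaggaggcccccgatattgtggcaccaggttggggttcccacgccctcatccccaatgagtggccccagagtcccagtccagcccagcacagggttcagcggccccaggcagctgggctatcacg

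Genes of triglyceride handling and pyruvate oxidation were called less firmly. In triglyceride synthesis and lipid droplets, 4 of 18 listed members were DEGs with higher levels (Lpin2, Plin2, Mgll and G0s2), 8 rose and 1 fell by FDR, and the median was 0.30. Lpin2, a phosphatidate phosphatase, ranged from 7.99 to 8.54 (median 8.18) and from 8.86 to 9.79 (median 9.41), a difference of 1.19 ± 0.13 (FDR = 9.94e-07). Its relative Lpin1 had group means of 8.78 ± 0.44 (SD, n = 6) with plain water, 6.26 ± 0.45 at 198 mg/kg-d and 5.90 ± 0.23 at 313 mg/kg-d. Lpin1 fell by 2.53 on the log2 scale between plain water and 198 mg/kg-d (FDR = 6.86e-09), and across the step described here the difference was -0.35 ± 0.20 (FDR = 0.264). G0s2, an inhibitor of adipose triglyceride lipase, ranged from 5.60 to 7.31 (median 6.05) and from 6.57 to 8.94 (median 8.00) with overlap, a difference of 1.60 ± 0.39 (FDR = 0.00738) that was 0.87 (FDR = 0.326) without animals 73, 74 and 75. No member of this list was a DEG without those 3 animals.

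Of 8 listed genes of the pyruvate dehydrogenase complex, its kinases and phosphatases, 3 rose, 1 of them a DEG, none fell by FDR (limma; at an unadjusted p under 0.05 7 were higher and 0 lower), and the median was 0.40. The kinase Pdk4 measured 1.26, 1.46, 2.01, 3.04, 1.74 and 0.78 in animals 49 to 54. In animals 73 to 78 it measured 3.89, 4.64, 3.78, 1.96, 2.10 and 2.60. Animals 73 to 75 were the highest of the 12 and animals 76 to 78 lay within the range of the lower dose. The difference of 1.45 ± 0.43 (FDR = 0.0292) lost its call when any of animals 49, 53, 54, 73, 74 or 75 was left out (FDR of 0.0511 to 0.0966). Of the 6 tyrosine breakdown genes, 1 rose and none was a DEG. In Gstz1, the enzyme that dechlorinates DCA, the groups overlapped at 9.86 to 10.27 and 9.55 to 10.04, and the difference was -0.25 ± 0.09 (FDR = 0.0822). Hgd, homogentisate dioxygenase, rose by 0.39 ± 0.12 (FDR = 0.0300).

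Genes that build fatty acids rose together with those that break them down. All 16 listed members were in the table, 5 were DEGs with higher levels, 8 rose and none fell by FDR (limma; at an unadjusted p under 0.05 8 were higher and 0 lower), and the median was 0.62. Scd1, the desaturase that makes oleic acid, measured 6.23, 7.22, 7.12, 6.94, 7.88 and 7.17 in animals 49 to 54. In animals 73 to 78 it measured 9.21, 9.35, 8.81, 9.75, 9.32 and 8.50. The groups did not overlap and the difference was 2.06 ± 0.25 (FDR = 4.03e-06). Me1, a source of NADPH, differed by 1.59 ± 0.19 (FDR = 3.02e-06), with 22.9% of its windows found in other genes. Fasn, fatty acid synthase, ranged from 4.76 to 5.82 (median 5.08) and from 6.18 to 7.01 (median 6.28), a difference of 1.21 ± 0.19 (FDR = 9.57e-05). The elongases Elovl5 and Elovl6 differed by 1.21 ± 0.17 (FDR = 2.33e-05) and 1.05 ± 0.15 (FDR = 3.13e-05). All 5 genes were also DEGs without animals 73, 74 and 75, at 1.12 to 2.10, while Elovl6 fell just short of a fold of 2 without animal 49 or without animal 76 (0.94 in the latter). In cholesterol synthesis and LDL uptake, 6 of 22 listed members rose, 1 fell, none was a DEG and the median was 0.19.

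**Figure D3:**
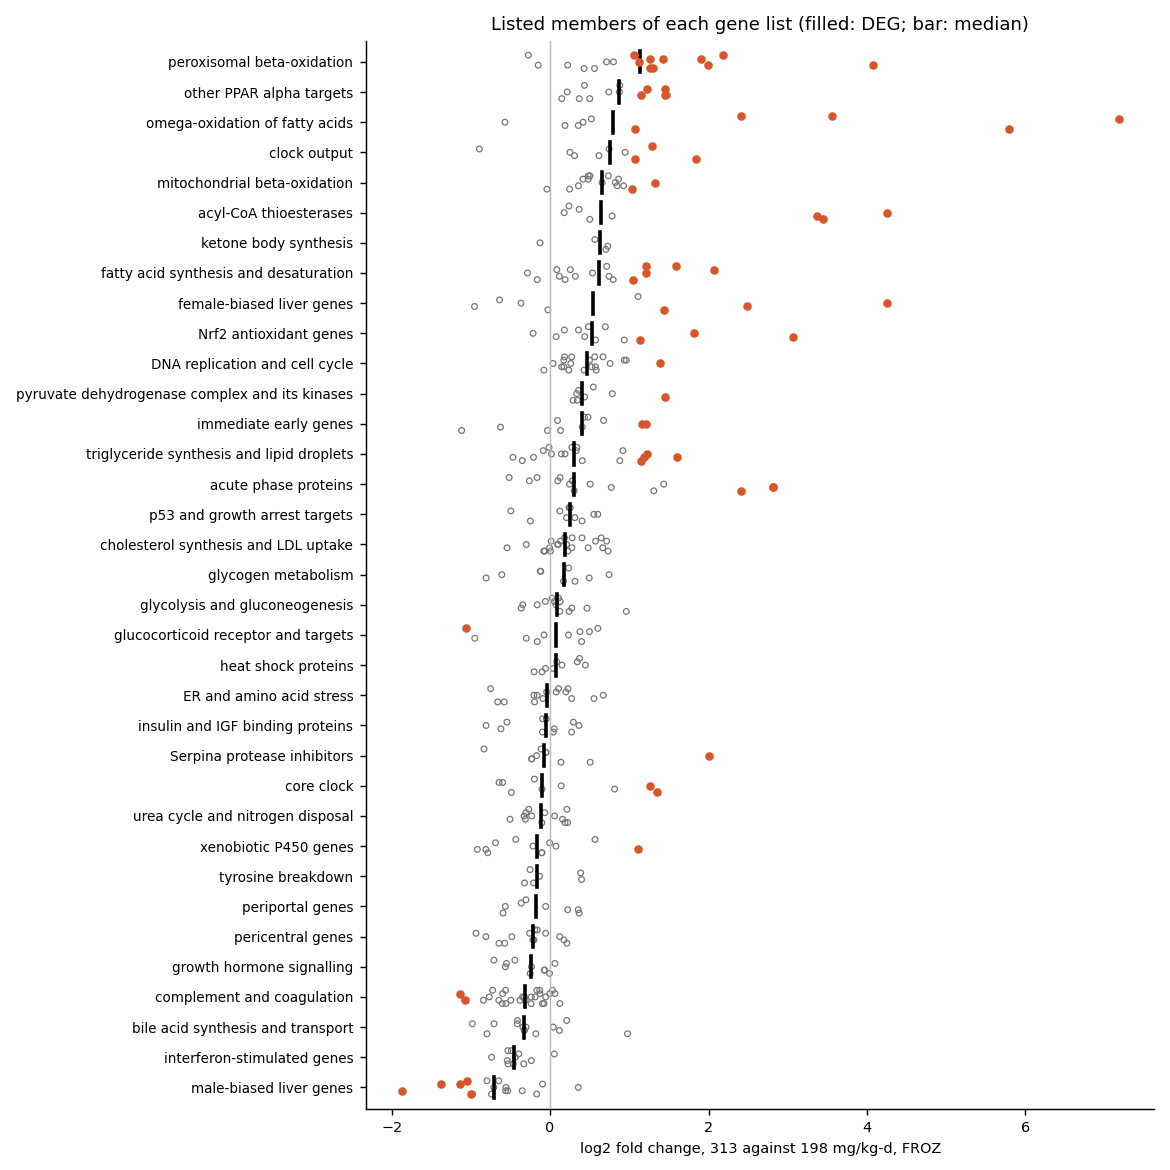
Log2 fold change of 313 against 198 mg/kg-d in FROZ (horizontal axis) for every listed member of 35 gene lists (vertical axis), with DEGs filled and the list median as a bar. The peroxisomal beta-oxidation list has the rightmost median (1.13) and the male-biased liver genes the leftmost (-0.71).

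Genes with sex-biased levels in mouse liver moved in both directions. Of 17 listed male-biased genes, 5 were DEGs with lower levels (Elovl3, Ugt2b1, Ugt2b38, Mup21 and C9), 10 fell and none rose by FDR (limma; at an unadjusted p under 0.05 13 were lower and 0 higher), and the median was -0.71. Elovl3, a fatty acid elongase, ranged from 11.70 to 12.18 (median 12.05) at 198 mg/kg-d and measured 10.90, 10.91, 10.59, 11.08, 10.85 and 9.43 in animals 73 to 78. The groups did not overlap, animal 78 was the lowest, and the log2 level fell by 1.38 (SE 0.26, FDR = 0.000725). Ugt2b38, a glucuronosyltransferase, ranged from 4.15 to 5.32 (median 4.94) and from 2.00 to 3.87 (median 2.92), a difference of -1.87 ± 0.27 (FDR = 3.19e-05), with 37.4% of its windows shared with relatives. Mup21, a major urinary protein, ranged from 3.73 to 5.65 and from 3.33 to 4.40 with overlap, and its difference of -1.05 ± 0.32 (FDR = 0.0337) was not called in 7 of the 12 fits that left out 1 library. Without animals 73, 74 and 75, 3 of the 5 were DEGs.

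Of 8 listed female-biased genes, 3 were DEGs with higher levels (Cyp2a4, Cyp2b9 and Acot3), and these were the members that rose. Acot3 is also counted in the thioesterase list above. None fell by FDR (limma; at an unadjusted p under 0.05 4 were higher and 2 lower), and the median was 0.54. Cyp2b9, a cytochrome P450, ranged from 0.00 to 0.72 (median 0.48) and from 1.31 to 4.12 (median 3.09), a difference of 2.49 ± 0.39 (FDR = 0.000108). At 198 mg/kg-d it was at or near the level of a few reads. Cyp2a4 ranged from 4.10 to 4.93 (median 4.50) and from 4.89 to 6.89 (median 5.88), so that the groups just met, with a difference of 1.44 ± 0.25 (FDR = 0.000364) that was 0.99 (FDR = 0.0521) without animals 73, 74 and 75. Of the 10 growth hormone signalling genes, 1 fell, none rose and none was a DEG (limma; at an unadjusted p under 0.05 2 were lower and 0 higher). That gene was Stat5b, a transcription factor activated by the growth hormone receptor, with a fall by 0.55 on the log2 scale (FDR = 0.0113).

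Glutathione transferases led the antioxidant list. Of 12 listed Nrf2 target genes, 3 were DEGs with higher levels, 7 rose and none fell by FDR (limma; at an unadjusted p under 0.05 8 were higher and 1 lower), and the median was 0.53. Gsta1 measured 2.23, 2.75, 3.28, 2.59, 2.76 and 3.99 in animals 49 to 54 and 6.49, 6.16, 6.96, 6.02, 5.50 and 4.90 in animals 73 to 78. The groups did not overlap and the difference was 3.07 ± 0.29 (FDR = 8.21e-08). Gm3776, which lies next to it on chromosome 9, differed by 2.90 ± 0.27 (FDR = 8.21e-08). These transcripts are near copies, with 90.5% of the 50-base windows of Gsta1 and 92.5% of those of Gm3776 found in another gene, so the values cannot be assigned to either with certainty. The likeness extends before the start of transcription, where their windows share an unbroken run of 193 bases. The 250 bases before the start (RefSeq, GRCm38.p6) are given to show this, Gsta1 from chr9:78230419-78230668 and Gm3776 from chr9:78256879-78257128 (both plus strand), with the shared run in capitals, which in Gm3776 goes on past the start.
Gsta1: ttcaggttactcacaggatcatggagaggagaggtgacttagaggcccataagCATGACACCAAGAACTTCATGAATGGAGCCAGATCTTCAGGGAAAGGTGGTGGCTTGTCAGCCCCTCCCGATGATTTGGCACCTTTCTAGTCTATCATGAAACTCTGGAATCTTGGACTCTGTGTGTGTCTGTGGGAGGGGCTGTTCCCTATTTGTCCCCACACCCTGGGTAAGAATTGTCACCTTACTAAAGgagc
Gm3776: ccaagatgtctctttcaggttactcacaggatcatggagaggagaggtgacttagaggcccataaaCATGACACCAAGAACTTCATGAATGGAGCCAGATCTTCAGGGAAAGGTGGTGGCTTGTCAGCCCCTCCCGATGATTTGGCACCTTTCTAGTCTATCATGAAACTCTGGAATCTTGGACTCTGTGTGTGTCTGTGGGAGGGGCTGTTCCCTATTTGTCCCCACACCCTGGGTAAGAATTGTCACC

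Gsta2 (1.82 ± 0.26, FDR = 3.89e-05), with 49.8% of its windows shared, and the quinone reductase Nqo1 were the other DEGs of the antioxidant list. Nqo1, a widely used readout of Nrf2, ranged from 2.24 to 2.56 (median 2.45) and from 3.18 to 3.95 (median 3.61), a difference of 1.14 ± 0.17 (FDR = 6.45e-05) that was 0.99 (FDR = 0.0124) without animals 73, 74 and 75. In the xenobiotic P450 list, 1 of 12 rose (Por, the reductase that supplies electrons to P450 enzymes, by 1.11 ± 0.18, FDR = 0.000124), 4 fell and the median was -0.16. Cyp2c67, named after its values were seen, fell by 1.27 on the log2 scale (SE 0.19, FDR = 5.40e-05), with 52.8% of its windows shared with other Cyp2c genes. Neither Por (0.95) nor Cyp2c67 (-0.98) reached a fold of 2 without animals 73, 74 and 75.

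Clock genes moved in both directions. In the core clock, 3 of 9 listed members rose and 2 fell, 2 were DEGs with higher levels, and the median was -0.10. Nr1d1, the repressor REV-ERBα, measured 2.85, 2.68, 3.00, 3.42, 2.60 and 2.83 in animals 49 to 54 and 4.24, 4.02, 3.94, 4.36, 4.70 and 4.25 in animals 73 to 78. The groups did not overlap and the difference was 1.35 ± 0.17 (FDR = 6.96e-06). Per3, a period protein, ranged from 0.71 to 1.56 (median 1.03) and from 1.89 to 3.01 (median 2.12), a difference of 1.27 ± 0.30 (FDR = 0.00524).

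In the clock output list 4 of 9 rose and 1 fell, 3 were DEGs with higher levels, and the median was 0.75. Dbp, an activator driven directly by the clock, ranged from 3.19 to 3.78 (median 3.52) and from 4.33 to 6.33 (median 5.34), a difference of 1.84 ± 0.44 (FDR = 0.00668). Bhlhe40, a repressor, ranged from 5.90 to 6.38 (median 6.17) and from 7.02 to 7.90 (median 7.46), a difference of 1.28 ± 0.24 (FDR = 0.000628). Neither gene's groups overlapped. Its relative Bhlhe41 overlapped between groups (0.47 to 1.22 against 1.06 to 2.71), and its call (1.07 ± 0.33, FDR = 0.0330) was lost in 6 of the 12 fits that left out 1 library and without animals 73, 74 and 75 (FDR = 0.0521). The times of day at which the livers were taken were not given in the sources used here, so their part in these values cannot be assessed.

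Immediate early genes, which respond within minutes to many stimuli, were mixed: 5 of 11 rose, 1 fell, 2 were DEGs with higher levels and the median was 0.40. Jun ranged from 2.90 to 4.55 (median 4.02) and from 4.52 to 5.80 (median 5.09), a difference of 1.21 ± 0.23 (FDR = 0.00102). Atf3 differed by 1.17 ± 0.21 (FDR = 0.000477). Neither was a DEG without animals 73, 74 and 75 (0.99 and 0.87). Zbtb16, a glucocorticoid target, fell by 1.06 on the log2 scale (FDR = 0.00264), and was the DEG among 10 listed glucocorticoid genes, of which 2 fell and none rose by FDR (limma; at an unadjusted p under 0.05 2 were lower and 1 higher). Its call was lost without animal 49, 53 or 75, and without animals 73, 74 and 75 together (FDR = 0.0616). Ccnd1, cyclin D1, ranged from 2.06 to 2.70 (median 2.22) and from 2.95 to 4.35 (median 3.70). The difference was 1.39 ± 0.24 (FDR = 0.000280). Ccnd1 was the DEG among 20 listed replication and cell cycle genes, of which 2 rose. Of all 11275 genes, 8.05% rose.

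Secreted liver proteins showed lower complement components and acute phase genes that varied widely between mice. Of 28 listed complement and coagulation genes, 13 fell and none rose by FDR (limma; at an unadjusted p under 0.05 15 were lower and 0 higher), 2 were DEGs and the median was -0.32. C9 ranged from 11.84 to 12.46 (median 12.11) and from 10.76 to 11.25 (median 10.99), a difference of -1.13 ± 0.18 (FDR = 0.000159). C8b ranged from 10.40 to 10.64 (median 10.46) and from 9.06 to 9.83 (median 9.30), a difference of -1.08 ± 0.12 (FDR = 1.18e-06) that was -0.82 (FDR = 0.000570) without animals 73, 74 and 75. Both encode parts of the membrane attack complex, and in both every mouse at 313 mg/kg-d was below every mouse at 198 mg/kg-d.

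Of 15 listed acute phase genes, 3 rose, all as DEGs, 1 fell and the median was 0.30. Saa2, a serum amyloid, measured 9.44, 6.80, 9.33, 7.49, 6.29 and 8.36 in animals 49 to 54. In animals 73 to 78 it measured 8.90, 13.33, 12.77, 8.74, 9.84 and 10.98. Animals 74 and 75 stood well above the rest and the groups overlapped. The differences were 2.81 ± 0.92 in Saa2 (FDR = 0.0461), 2.82 ± 0.80 in Lcn2, an iron-trapping lipocalin (FDR = 0.0218), and 2.41 ± 0.69 in Orm2, a carrier glycoprotein (FDR = 0.0229). Without animals 74 and 75, an alternative chosen after the values were seen, they were 1.66, 1.63 and 1.23 with FDR of 0.355, 0.248 and 0.275, and leaving out animal 53 of the lower dose also ended all 3 calls (FDR of 0.112, 0.0576 and 0.0621). In the Serpina list 1 of 10 rose and 1 fell. The riser, Serpina7, the thyroxine-binding globulin, ranged from 5.20 to 6.02 (median 5.49) and from 6.57 to 8.65 (median 7.43), a difference of 2.01 ± 0.29 (FDR = 3.36e-05), and was a DEG in every fit that left out 1 library.

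The largest decreases among DEGs with separate groups were spread over genes of varied roles. Besides Ugt2b38 and Elovl3 they were Lrtm1 (-1.73 ± 0.21), the receptor Adgrf1 (-1.55 ± 0.27), the transporter Slc22a28 (-1.54 ± 0.24), the acetyltransferase relative Nat8f7 (-1.54 ± 0.27), the desmosomal cadherin Dsg1c (-1.45 ± 0.30), the lysyl oxidase relative Loxl4 (-1.41 ± 0.29), the oestrogen sulphotransferase Sult1e1 (-1.38 ± 0.34) and the DNA repair factor Paxx (-1.36 ± 0.25), with limma FDR from 3.29e-06 for Lrtm1 to 0.00755 for Sult1e1. Lrtm1 ranged from 1.90 to 3.13 (median 2.35) and from 0.17 to 1.55 (median 0.51), where the lower values are at or under 3 reads. In Loxl4 animal 75 was at 0. Of these 8 genes, Lrtm1 and Nat8f7 were DEGs without animals 73, 74 and 75 and the other 6 were not. Nat8f7 and Slc22a28 share 82.3% and 53.9% of their windows with other genes. Serpina4-ps1, with the largest decrease of any DEG (-2.23 ± 0.53, FDR = 0.00651), had overlapping groups and was named after its values were seen. Its call was lost without animals 73, 74 and 75 (-1.32, FDR = 0.291) and without animals 74 and 75 (-1.79, FDR = 0.0768).

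**Figure D4:**
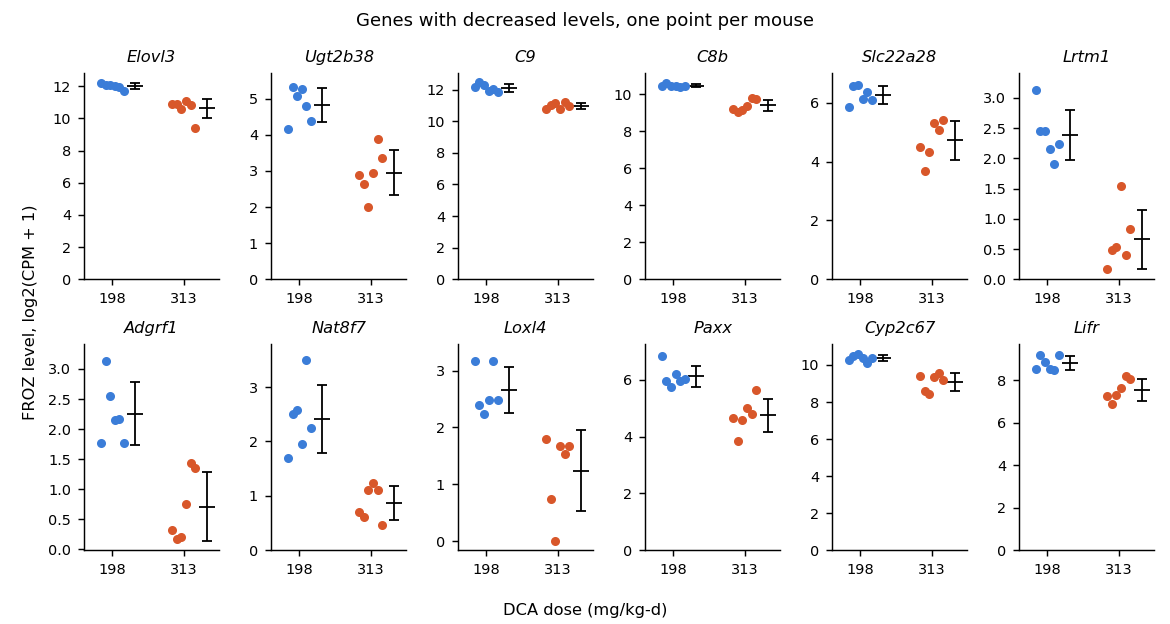
Levels, log2(CPM + 1), of 12 genes with lower levels at 313 mg/kg-d in the 6 mice of each dose (left to right by animal number), with the mean and SD of 6 as a dash and bar. In every panel the groups are separate, from Elovl3 (11.70 to 12.18 against 9.43 to 11.08) to Lrtm1 (1.90 to 3.13 against 0.17 to 1.55).

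Several lists held no DEG. Of all 11275 genes, 8.05% rose and 3.65% fell by FDR. A single called member in a list below is to be read against these shares, and is no sign of a change in the list as a whole. In bile acid synthesis and transport 6 of 14 fell and none rose by FDR (limma; at an unadjusted p under 0.05 8 were lower and 1 higher), with a median of -0.33. Slc27a5, which activates bile acids for conjugation, fell by 0.42 on the log2 scale (FDR = 0.00224), while Cyp7a1, the rate-limiting enzyme of synthesis, overlapped between groups (4.42 to 6.71 against 5.41 to 7.32, 0.98 ± 0.33, FDR = 0.0541). Among insulin and IGF genes 2 of 11 fell, including the receptor substrate Irs2 (-0.81 ± 0.22, FDR = 0.0166). Of 14 glycolysis and gluconeogenesis genes 1 rose, G6pc, the last enzyme of glucose output (0.96 ± 0.25, FDR = 0.0130). Of 9 glycogen genes 1 rose (Gbe1, the branching enzyme, 0.74 ± 0.13) and 1 fell. Among 14 pericentral genes 4 fell, with Lect2 at -0.94 ± 0.13, and among 8 periportal genes 1 rose and 1 fell (Hal, -0.59 ± 0.12). In 9 heat shock genes 1 rose, in 15 ER stress genes 1 fell, in 13 urea cycle genes 1 fell (Otc, -0.51 ± 0.11), in 10 p53 targets 1 rose (Ccng1, 0.55 ± 0.13), and in 11 interferon-stimulated genes 2 fell (Rsad2, -0.74 ± 0.19).

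The 11 lists of cell type markers, with 60 genes in the table, held no DEG by limma, and at an unadjusted p under 0.05 3 were higher and 7 lower. Over all 11275 genes, 2959 differed at that threshold in either direction. Summed levels for Kupffer cells were 243 to 276.6 CPM at 198 mg/kg-d and 168.3 to 330.7 CPM at 313 mg/kg-d (8 of 10 markers listed). Sinusoidal endothelium summed to 383.1 to 418.3 and 333.3 to 408.8 CPM, with 2 of 8 markers lower by FDR. Stellate cells and fibroblasts summed to 317.3 to 571.3 and 279.6 to 402.7 CPM, and erythroid markers to 56.09 to 70.54 and 32.02 to 58.3 CPM, with 1 marker of 9 higher and 1 of 7 lower. The neutrophil markers S100a8 and Retnlg summed to 0.389 to 1.32 CPM at 198 mg/kg-d and 0.651 to 8.54 CPM at 313 mg/kg-d, both higher at an unadjusted p under 0.05. The part of these cells in the results was not tested.

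The step was set against its neighbours by testing the difference of the fold changes, which share libraries at 198 or 313 mg/kg-d, and a difference was called at FDR under 0.05 and above 1 on the log2 scale. Between plain water and 198 mg/kg-d 12 genes were DEGs in either direction (0.106%), and between 313 and 427 mg/kg-d 56 were (0.497%). The log2 fold change from 198 to 313 mg/kg-d exceeded that from 0 to 198 mg/kg-d in 50 genes (0.443%) and lay below it in 12 (0.106%). Against the step from 313 to 427 mg/kg-d it was higher in 76 genes (0.674%) and lower in 45 (0.399%). In Cyp4a14 the neighbouring steps were 0.81 ± 0.35 and 0.72 ± 0.35, and the step described here was larger by 6.37 ± 0.60 (FDR = 5.11e-07) and 6.45 ± 0.60 (FDR = 3.83e-07). Cyp4a10 and Ehhadh were also above both neighbours, by 5.05 and 5.24 and by 3.92 and 3.58. Acot3 was above the lower step by 4.26 ± 0.77 (FDR = 0.00908) but rose again by 3.77 between 313 and 427 mg/kg-d, and the difference to that step was 0.49 ± 0.77 (FDR = 0.779).

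Other patterns across dose were called as well. Bhlhe40 differed by -1.49 from 0 to 198 mg/kg-d and by 1.28 in the step described here, a difference of 2.77 ± 0.41 (FDR = 0.000747). Nr1d1 rose in both (1.24 and 1.35), and the difference of 0.11 ± 0.30 was not called (FDR = 0.916). Egr1, an immediate early factor, rose by 2.46 from 0 to 198 mg/kg-d and then differed by -1.12 ± 0.41 (FDR = 0.0783), with a difference between the steps of -3.57 ± 0.72 (FDR = 0.0156). Lpin2 fell by 0.65 below 198 mg/kg-d and rose by 1.19 above it, a difference of 1.83 ± 0.23 (FDR = 6.41e-05). H2-Q8, a class I gene, had the second largest difference (5.24 ± 1.07, FDR = 0.0198). It measured 3.56, 1.96, 5.48, 0.12, 0.07 and 3.03 in animals 49 to 54 and 5.14 to 6.29 at 313 mg/kg-d. In the FFPE libraries of the same mice its means were 7.24 and 7.25, a difference of 0.02 ± 0.39 (limma FDR = 0.990). The FFPE minus FROZ difference in the step was -3.27 ± 0.77 and was not called (limma FDR = 0.162). Against the step to 427 mg/kg-d, the acute phase genes Saa2 (7.15 ± 1.59, FDR = 0.0193), Lcn2 (6.34 ± 1.39, FDR = 0.0175) and Orm2 (5.46 ± 1.20, FDR = 0.0177) were far above, since they fell by 4.34, 3.52 and 3.05 between 313 and 427 mg/kg-d, with the spread at 313 mg/kg-d given above.

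**Figure D5:**
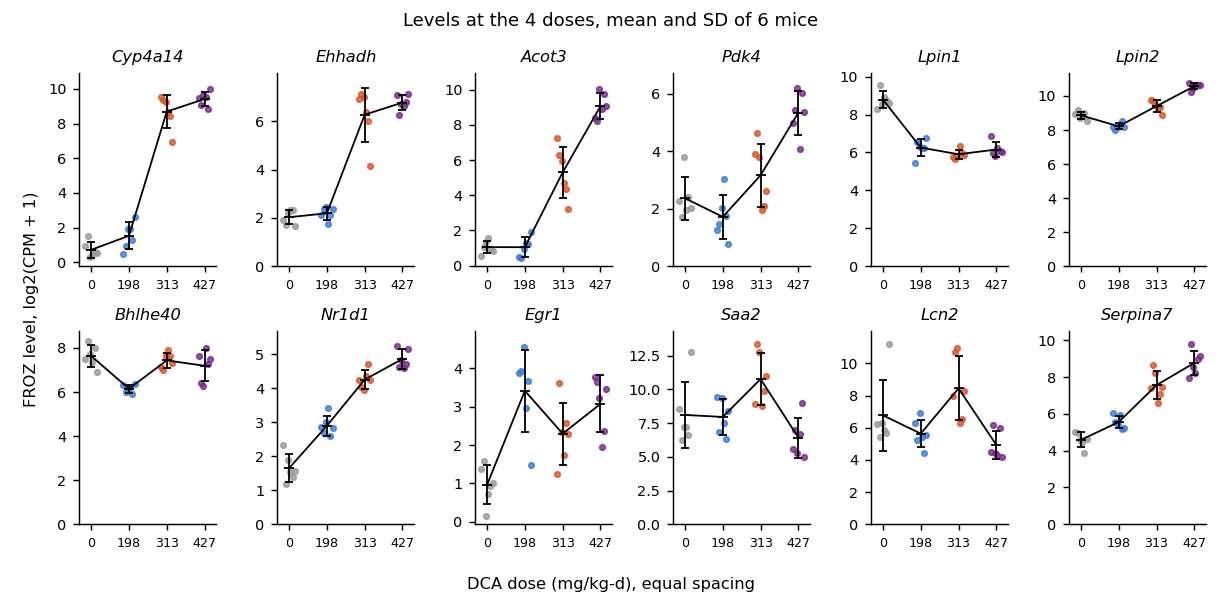
Levels, log2(CPM + 1), of 12 genes in the 6 FROZ mice at each of the 4 doses (horizontal axis, mg/kg-d), with mean and SD of 6 joined by a line. Cyp4a14 has means of 0.71, 1.52, 8.70 and 9.42, while Lpin1 drops from 8.78 to 6.26 below 198 mg/kg-d and Acot3 goes on rising to 427 mg/kg-d.

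The FFPE libraries of the same 12 mice gave fewer calls. Of the 6673 genes of the FFPE table, 42 were DEGs with higher levels at 313 mg/kg-d (0.629%) and 11 with lower levels (0.165%), at 1830000 to 5590000 reads per library in its 12 libraries at these doses. Of the 154 FROZ DEGs, 101 were listed in FFPE and 26 were DEGs there, which is 25.7% of the 101 and 50% of the 52 FFPE DEGs that FROZ listed. In Cyp4a14 the FFPE difference was 5.55 ± 0.64 (FDR = 1.51e-06), in Cyp4a10 5.76 (FDR = 0.000190), in Ehhadh 3.56 (FDR = 0.00537), in Scd1 2.61 (FDR = 1.51e-06), and in C9 it fell by 1.97 (FDR = 1.51e-06). Acot3 (2.02, FDR = 0.395), Cd36 (1.02, FDR = 0.723) and Gsta1 (2.13, FDR = 0.293) were not called in FFPE. Neither were Gsta2 (-0.76, FDR = 0.773) and Decr2 (-0.69, FDR = 0.848), whose FFPE differences had the opposite sign to FROZ. In Paxx, a DEG with lower levels in FROZ, the FFPE difference was 0.00 (FDR = 0.999). These genes are examples and not a count. When FROZ was subtracted from FFPE within each animal and the step tested over the 6591 shared genes, none was called by limma (smallest FDR = 0.0532), with 620 at an unadjusted p under 0.05.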

How the data were processed

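The authors hybridised detector oligos to FROZ RNA or FFPE lysate, attenuated very abundant targets, and sequenced 50-base single-end reads. In Partek Flow they aligned reads with STAR (version 2.6 in the submitters' notes) to mm10, counted RefSeq transcripts by expectation maximization, added an offset of 1e-04 to all genes, removed genes with a geometric mean of at most 1, and deposited log2 values of CPM with an offset of 1. From these, limma 3.58.1 (R 4.3.3; variance prior following the mean) was fitted to all 24 FROZ libraries with dose as the factor, and Benjamini-Hochberg FDR was taken over all 11275 genes, so 2 names that occur more than once were kept as separate entries. A DEG had FDR under 0.05 and a fold change above 2. The FFPE table (6673 genes) was fitted alike, and the FFPE minus FROZ contrast used the paired difference within each animal, since the labels give both libraries the same animal number. As a check, the deviations of an animal's 2 libraries from their dose means were correlated over 4815 genes. In the 12 animals of the step the median was 0.0861 and the lowest -0.0172. For 9 of the 12 the own FFPE library gave the highest correlation within the dose. Between different animals of a dose, over all doses, the median was -0.0232. Since values were centred within each dose, that is not an independent baseline. Depth was recovered from repeated low values (96.0 to 97.6% of FROZ values came out within a tolerance of whole reads). Such limits cover counting error only. The genes and lists were chosen with earlier results of these data known. Some genes belong to more than 1 list, Acot3, C9, Plin2, Mgll and Pdk4 among them, so the lists are not independent of one another. Individual genes were the 10 largest increases and 10 largest decreases among DEGs with separate groups, up to 4 DEGs of each list or else the member with the lowest FDR, a short set of marker genes (Cyp4a14, Cyp4a10, Acot1, Acot3, Lpin1, Pdk4, Gstz1, Nr1d1 and Dbp), and the 5 largest differences of steps each way. Others were named after their values were seen: the receptors, the chromosome 17 genes, Serpina4-ps1, Cyp2c67 and further members of the described lists. Some genes that this rule selects are not reported here. The test was checked on simulated data. Positions, promoters and transcripts came from RefSeq and GENCODE on GRCm38, the build of mm10. No other measurement of the series was used here.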

Additional observations from a re-analysis of the deposited data

Results flagged for a closer look

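In 21 of the 268 groups of 6 FROZ mice examined (134 genes at 198 and at 313 mg/kg-d), 1 mouse lay far from the other 5: its gap to the nearest of them was larger, relative to the group's range, than Dixon's critical value at 95%. Chance alone gives about 1 in 20 such groups. Values are log2(CPM + 1), and the cause was not tested for any of them.

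Animal 78 was the mouse in question in 8 genes at 313 mg/kg-d. It was the lowest of its group in Ehhadh (4.15), Acaa1a (9.52), Acaa1b (2.37), Decr2 (7.58) and Mgll (4.77), genes of fatty acid breakdown that rose in the step, and in Hspd1 (6.63). It was also the lowest in Elovl3 (9.43) and the highest in Cfi (8.92), genes that fell. Animal 76 was the highest of its group in Fasn (7.01) and Elovl6 (7.41) and the lowest in Cpt1a (0.63).

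At 198 mg/kg-d animal 49 was the lowest in Hspd1 (6.41), Abcd3 (6.59), Aldh1a1 (3.53), Acat1 (7.49), Hadha (8.71) and Slc22a5 (listed at 0.00) and the highest in Ddit3 (2.38). Animal 52 was the highest in Ccnd1 (2.70) and Pctp (4.62), and animal 50 in C8b (10.64).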

How the results depend on the processing

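No result reversed in any alternative run. The 154 DEGs of the step became 226 with an offset of 0.1 CPM (160 higher, 66 lower), 207 with 1e-04 CPM (148 and 59), 148 with median ratio scaling, 112 at a mean of at least 10 CPM, and 108 with an exact rank sum test. Leaving out 1 library gave 135 to 182 DEGs, 103 to 129 higher and 30 to 54 lower. Without animals 73, 74 and 75 there were 73 (63 higher, 10 lower), and without animals 74 and 75 there were 114 (96 and 18). Both sets were chosen after the values were seen, and the part that fewer libraries play in these counts was not tested. With array quality weights, 41 genes in place of 62 were called for the step against the one below it. The FFPE step had 53 DEGs, and 29 with 1e-04 CPM, 33 without the variance trend and 27 with array quality weights; the cause was not tested. The FFPE minus FROZ difference was called in 0 genes with the animal as replicate block, and in 2 without the replicate block and in 2 with an offset of 0.1 CPM. Of the 154 DEGs, 87 lost their call without animals 73, 74 and 75, 49 without animals 74 and 75, and 47 with the rank sum test. Among the 134 individually tabulated genes the losses were 45, 24 and 21. Those 134 include genes that were not DEGs in the main fit, such as Ppara, Rxra and Gstz1, and these had no call to lose. Median depth differed by -255000 reads and the median of genes at 0 by 4.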

Other observations

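The genes in these paragraphs were named after their values were seen and are given as values only. Genes of vitamin A handling were among the DEGs with higher levels. Retsat, a retinol saturase, measured 6.97, 6.95, 7.02, 7.25, 7.44 and 7.47 at 198 mg/kg-d and 10.09, 9.84, 9.91, 9.38, 9.22 and 8.19 at 313 mg/kg-d. The groups did not overlap, and the log2 fold change was 2.26 ± 0.21 (limma FDR = 8.21e-08), larger than that from 0 to 198 mg/kg-d by 2.22 ± 0.37 (FDR = 0.00323). Rdh16, a retinol dehydrogenase, rose by 1.07 ± 0.16 (FDR = 7.50e-05), the retinal dehydrogenase Aldh1a1 by 1.09 ± 0.21 (FDR = 0.00103), and Cyp26a1, which clears retinoic acid, by 1.11 ± 0.34 (FDR = 0.0316). Without animals 73, 74 and 75 Aldh1a1 was not called (0.62, FDR = 0.155), and it fell short of a fold of 2 without animal 49, 74 or 75. The call of Cyp26a1 was lost without animal 51, 53, 75, 76 or 78 (FDR of 0.0561 to 0.0767), and Rdh16 fell short of a fold of 2 without animal 76 (0.98).

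The Raet1 genes encode ligands of the natural killer receptor NKG2D. Raet1b ranged from 2.86 to 4.53 and from 5.56 to 6.39, a difference of 2.29 ± 0.39 (FDR = 0.000252), and Raet1c and Raet1d differed by 1.86 and 2.11. Without animals 73, 74 and 75 Raet1c was not called (1.65, FDR = 0.0672). The Raet1 genes resemble each other (55.8% of the windows of Raet1d are shared), so these are not independent. The mitochondrial carrier Ucp2 rose by 1.69 ± 0.21 (FDR = 5.64e-06), and the lipid transfer protein Pctp by 2.18 ± 0.28 (FDR = 5.64e-06). Apoa4, an apolipoprotein, fell by 1.06 on the log2 scale (FDR = 2.92e-06), and the cytokine receptor chains Lifr and Il1rap by 1.25 and 1.13. None of these 3 decreases reached a fold of 2 without animals 73, 74 and 75 (-0.91 in Apoa4, -0.84 in Lifr and -0.86 in Il1rap), nor did that of Apoa4 without animal 75 alone (-0.98). Ccl2, a monocyte chemokine, ranged from 1.22 to 2.27 and from 1.74 to 5.11 (1.55 ± 0.37, FDR = 0.00664), and was not called without animals 73, 74 and 75 (0.75, FDR = 0.303).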
